A study of Mus musculus with 48 samples.

Results

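The 16 sham-operated libraries compared here came from mice whose cortex was sampled early, at 3 h or 12 h after surgery (8 libraries), or late, at day 3 or day 7 (8 libraries), and they were all the libraries that the labels call sham at those times, out of 48 bulk libraries in the series. A sham animal had the operation for middle cerebral artery occlusion (MCAO) up to the opening of the dura, under isoflurane and with a hole drilled through the frontal bone, but its artery was neither coagulated nor cut. Each time group held 4 libraries with the letters A to D, taken from brain cortex of C57Black/6 males aged 3 months, and 4 control libraries from the intact cortex of mice of that age and 4 sham libraries at 24 h served as reference. The 24 MCAO libraries were used for a few genes only. The mice carried no engineered allele in the labels, and the labels describe the tissue piece as the injured cortical region with its surroundings, while the text of the study speaks of most of the hemisphere on the operated side. The labels gave no time of day, surgery day or dissection day, so time after surgery and any such batch cannot be told apart. They did not tie libraries to animals, which the text of the study counts as mice per condition. The p-values thus set differences between groups against the spread between libraries, estimated over the 24 libraries without occlusion.

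Opening the skull and dura is an injury in itself. In rodents, anaesthesia, handling and surgery are known to raise circulating corticosteroids, which act through the glucocorticoid receptor on genes such as *Fkbp5* and *Tsc22d3*, and neuronal activity, stress and wounding switch on immediate early genes such as *Fos*, *Egr1* and *Arc* within minutes to hours. Glial and immune responses to tissue damage follow over hours to days. Many cortical transcripts also follow the day and night cycle through the clock genes. A contrast of early with late shams thus asks which of these programmes differed between the first 12 h and the days after the same operation.

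The tables held 46983 genes, of which 18140 had more than 10 counts over the 24 libraries without occlusion and were tested. Counts on genes per library ran from 1716514 to 2657324 in early shams and from 1788614 to 2826735 in late shams, with medians of 2074807 and 2156863, so depth was alike on both sides. Expression is given as CPM, the counts of a gene per 1000000 counts of its library, with library totals scaled by the trimmed mean of M values (TMM). Markers of brain cells were present, with summed neuronal markers at 17067 to 35418 CPM in early and 21798 to 40408 CPM in late shams and astrocyte markers at 6213 to 7881 and 6007 to 7292 CPM. Markers of cortical excitatory layers summed to 788 to 1285 CPM in early and 886 to 1384 CPM in late shams. The libraries did not hold cortex alone, since 10 markers of striatal projection neurons summed to 459 to 2492 CPM in early and 531 to 1856 CPM in late shams. Growth hormone *Gh* and prolactin *Prl*, hormones of the pituitary, reached 370 and 136 CPM in sham 3 h C and were at 0 or near it in the other libraries of that group. Over 11474 genes with a mean of at least 5 CPM, the first principal component took 35.7% of the variance and set sham 12 h A and sham day 7 D apart from the rest. Early libraries spanned −37.9 to 56.8 on it and late libraries −23.4 to 60.7, so the component did not separate early from late. Root-mean-square distances in log2 CPM were 0.533 at the median between libraries of the same time group. They were 0.579 between different time groups on the same side, early or late, and 0.555 between early and late libraries.

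**Figure D1:**
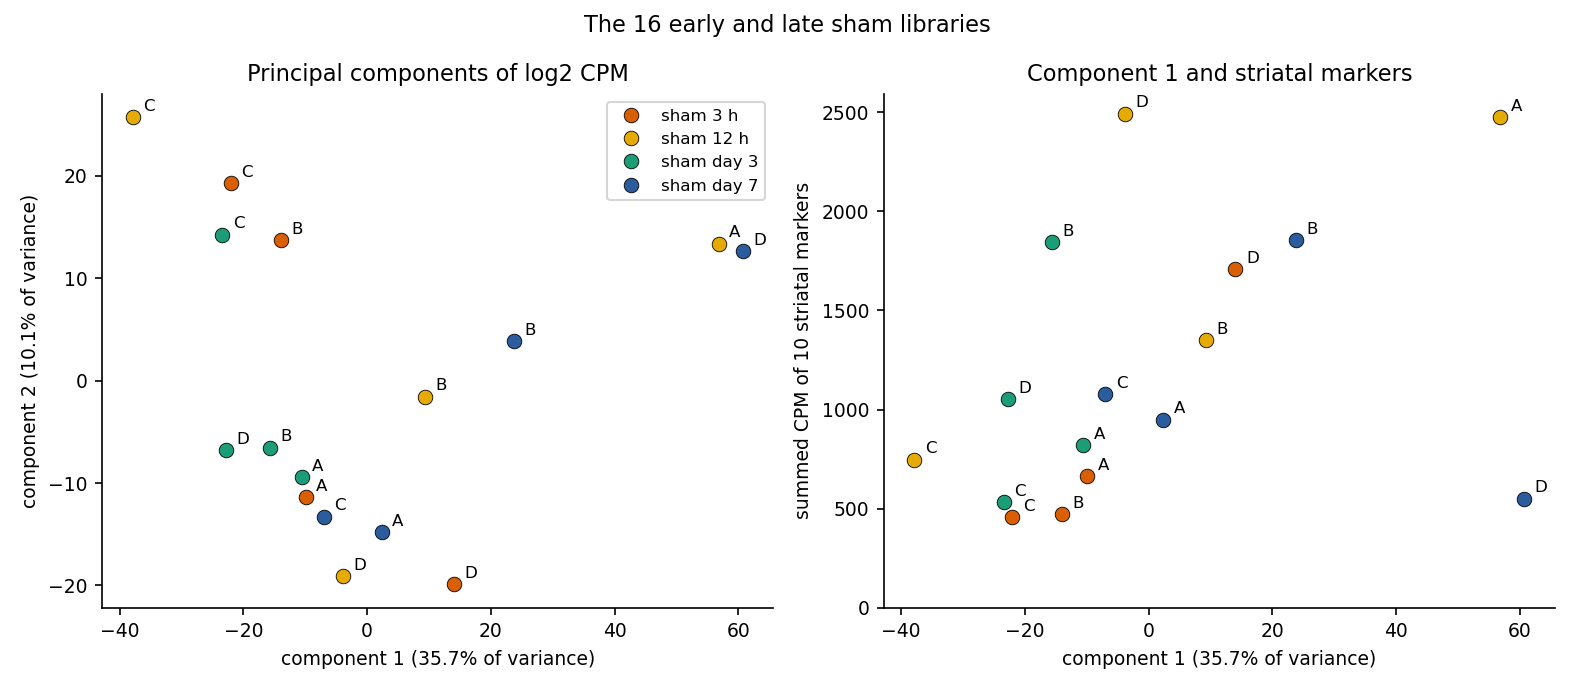
The 16 early and late sham libraries, each point 1 library with its letter. Left, scores on principal components 1 and 2 of log2 CPM; right, component 1 against the summed CPM of the striatal markers tested. Sham 12 h A and sham day 7 D lie at 56.8 and 60.7 on component 1, and the 4 time groups overlap.

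Early and late shams differed in very few genes. With edgeR's quasi-likelihood test, Benjamini-Hochberg adjustment over all 18140 genes and the study's limits of an adjusted p below 0.01 and an absolute log2 fold change over 0.58, 2 genes passed, which is 0.0110% of those tested, and both were lower in early shams. These were *Synpr*, which codes for the synaptic vesicle protein synaptoporin, and *Gm15446*, a predicted protein-coding gene. Without adjustment, 504 genes were higher in early shams at p under 0.05 (2.78%) and 539 were lower (2.97%). Only 3 genes (0.0165%) had all 8 early libraries on 1 side of all 8 late libraries. Among the 11474 genes with at least 5 CPM the fitted log2 fold changes had a median standard error (SE) of 0.165, 90% of them lay between −0.295 and 0.339, and 166 (1.45%) exceeded 0.58 in either direction. The contrast averaged the log means of the time groups, so that a gene at 0 throughout a time group on both sides could not be tested, and 96 genes, none with a mean over 2.1 CPM, had p at 1 for that reason. DESeq2 called 4 genes.

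**Figure D2:**
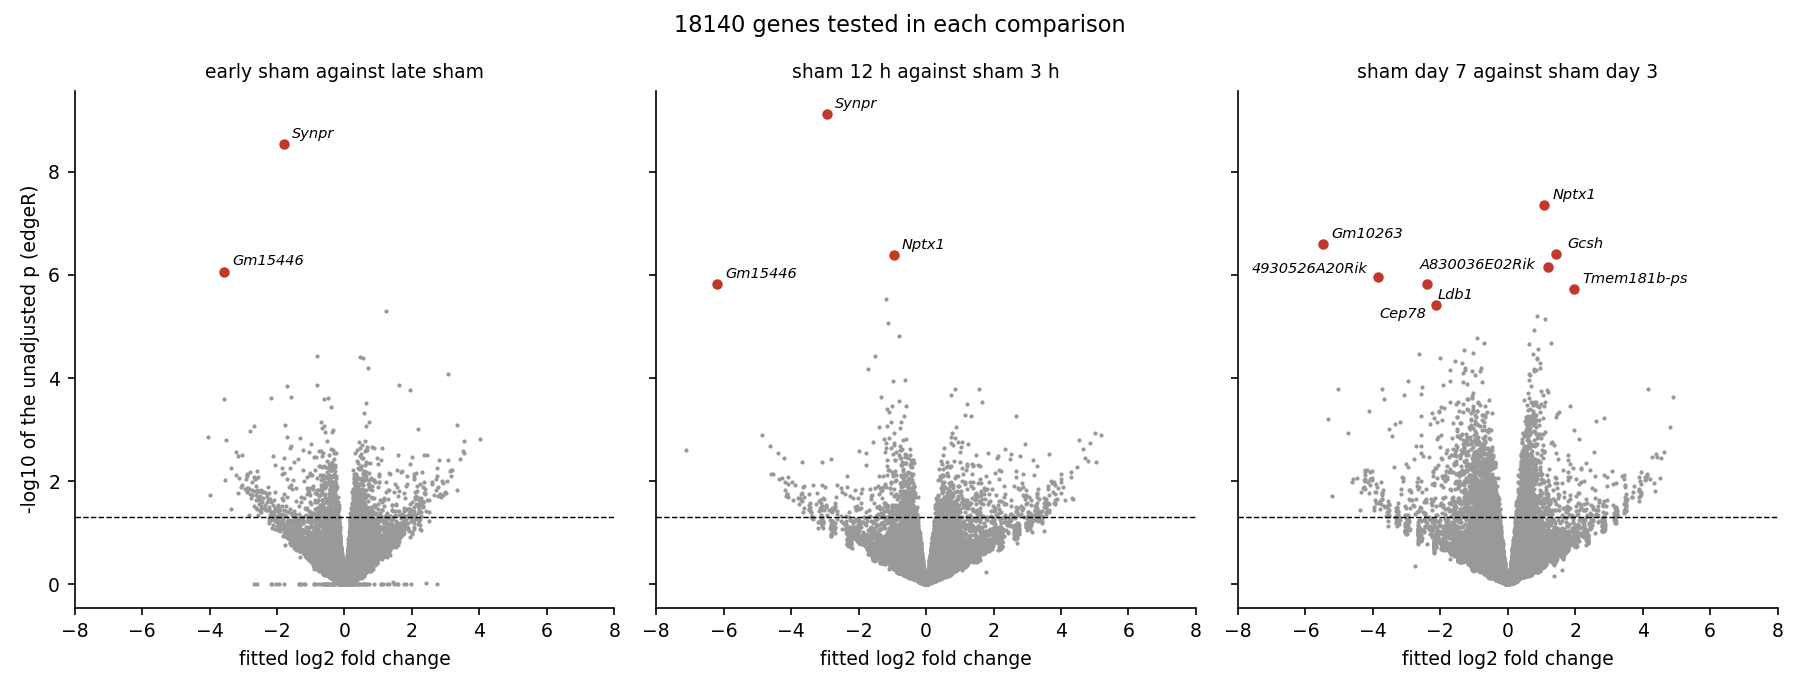
Fitted log2 fold change (horizontal, first-named group over the other) against −log10 of the unadjusted edgeR p (vertical) for the 18140 genes in 3 comparisons. Each grey point is a gene, red points passed both limits, and the dashed line marks p at 0.05. The number of red points is 2, 3 and 8 from left to right.

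*Synpr* (chr14:13284780-13616340, plus strand, GRCm38) stood out because of the 12 h group. Its CPM was 44.8, 51.9, 45.5 and 71.8 at 3 h, 4.88, 4.12, 13.1 and 4.27 at 12 h, 76.6, 92.7, 103 and 142 at day 3 and 34.2, 63.6, 38.7 and 34.3 at day 7. Every 12 h library lay below every other sham library, while the 3 h libraries overlapped with those of day 7 and lay below those of day 3. Controls had 81.4, 108, 116 and 51.7 CPM and shams at 24 h 49.1, 36.3, 58.6 and 66.9 CPM, again all above 12 h. The early-late log2 fold change was −1.79 (SE 0.22, edgeR adjusted p = 5.28e-05), and that of 12 h against 3 h was −2.95 (SE 0.33, adjusted p = 1.38e-05). The early-late log2 fold change of *Synpr* was −0.32 with 3 h as the only early group, −1.16 with day 7 as the only late group and −1.3 with the libraries taken as 2 plain groups of 8, and passed the limits in none of these 3 fits. *Synpr* is known from hippocampal mossy fibres and from interneurons. The 7 hippocampal markers tested had an early-late median of −0.60, with 2 above 0 and none at an unadjusted p under 0.05. The mossy fibre gene *C1ql2*, at means of 1.17 CPM in early and 1.31 CPM in late shams, had a log2 fold change of −3.69 for 12 h against 3 h (unadjusted p = 0.00427, adjusted p = 0.694 by edgeR). It was the only one of the 7 at an unadjusted p under 0.05 there, against 2.83% each way of all genes. The median of the 7 for 12 h against 3 h was −0.063, with 3 above 0. The summed level of the 7 markers, most of it from *Prox1*, was 33.8 to 58.0 CPM at 12 h and 38.8 to 50.8, 31.3 to 52.8 and 39.4 to 57.0 CPM at 3 h, day 3 and day 7. The part of hippocampal tissue in the *Synpr* values was not tested.

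*Gm15446* (chr5:109923400-109943936, plus strand) behaved alike at a far lower level. It had no count in any of the 4 libraries at 12 h, against 2.77, 3.99, 2.21 and 9.11 CPM at 3 h, 9.26, 7.31, 9.65 and 7.37 at day 3 and 2.28, 6.50, 3.76 and 5.50 at day 7. Controls had 9.35, 4.41, 3.33 and 1.69 CPM and shams at 24 h 3.55, 5.63, 2.44 and 2.06 CPM, so that the 12 h group was separate from all others. Taking 3 counts over the 12 h group as the floor, mean CPM was 13.7-fold above that floor at 3 h, 25.5-fold at day 3 and 13.7-fold at day 7. These ratios leave out the spread between libraries. Since a fitted fold change against 0 depends on the prior count, none is given here. The early-late contrast, a mean of log means, gives a group at 0 great weight, and with the libraries taken as 2 plain groups of 8 the gene did not pass. Its adjusted p by edgeR was 0.00783 in the early-late comparison, a call that was lost on leaving out any of 14 of the 16 libraries in turn, and 0.0091 in 12 h against 3 h.

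**Figure D3:**
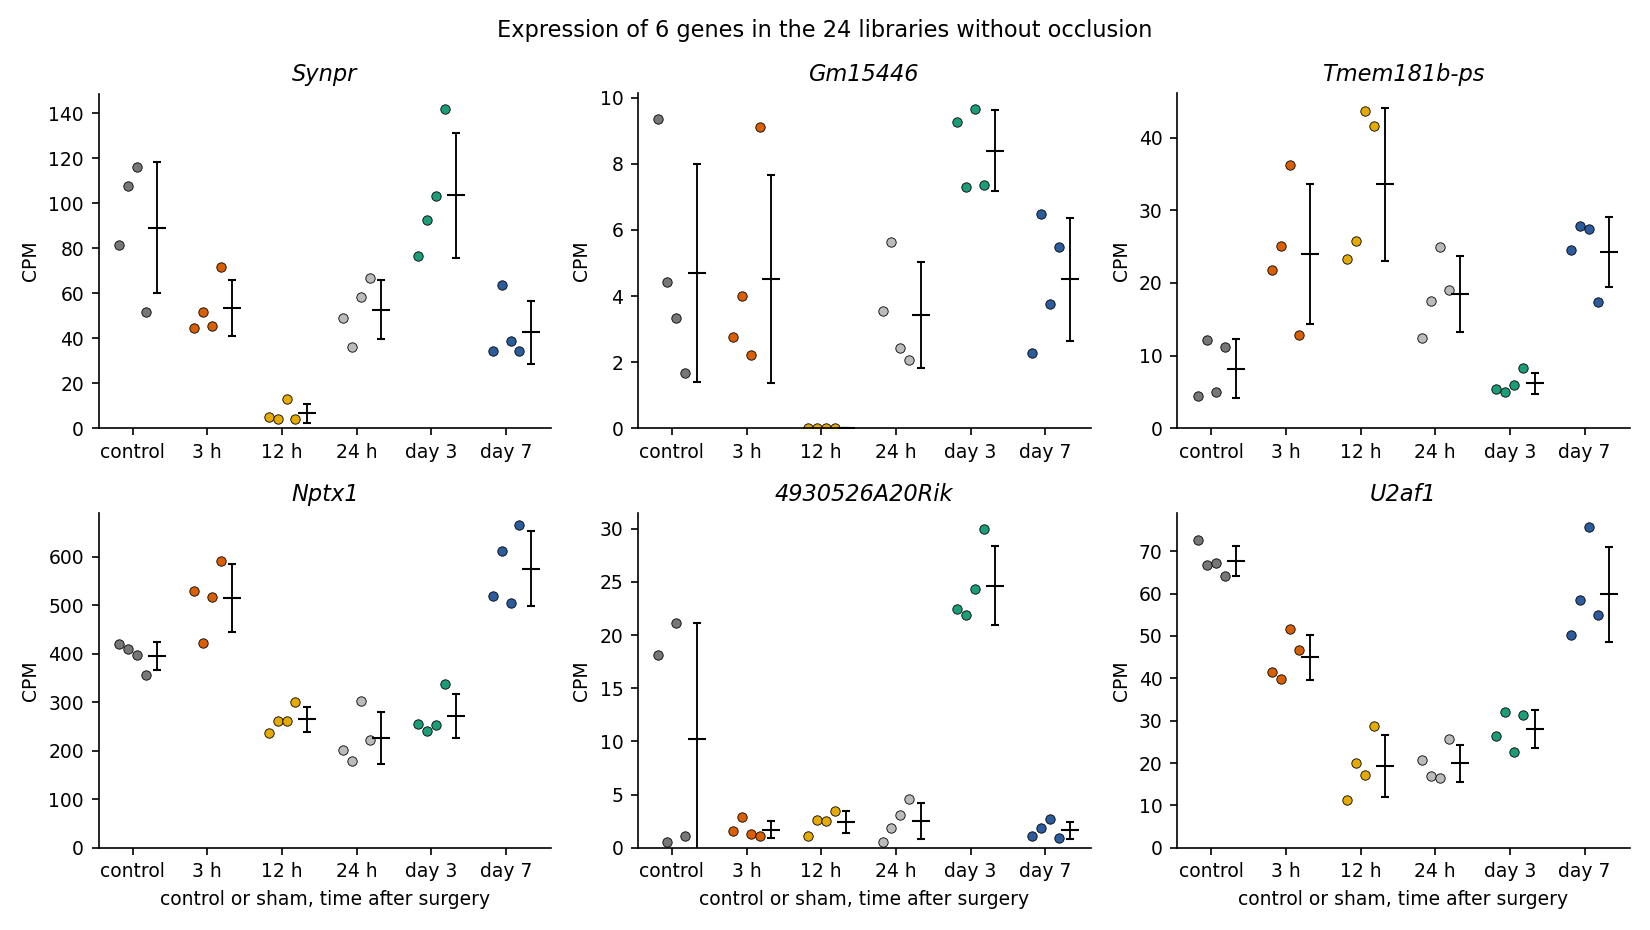
CPM (vertical, from 0) of 6 genes that passed both limits in a comparison, in controls and in shams by time after surgery. Each point is a library, and the bar to its right is the mean ± SD (n = 4), with the lower end of 1 bar below 0 not drawn. *Synpr* and *Gm15446* are lowest in all 4 libraries at 12 h, and 4930526A20Rik is high in all 4 libraries at day 3.

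Both genes were also low in a group with occlusion. On a scale common to all 48 libraries, *Synpr* had 3.01, 2.83, 4.61, 3.02 and 8.20 CPM in the 5 MCAO libraries at 3 h, against 13.7 to 123 CPM in the MCAO libraries of other times. *Gm15446* had 0, 0, 0, 0.431 and 1.82 CPM at MCAO 3 h, 1.04 to 2.98 CPM at MCAO 12 h, 6.11 to 10.3 at 24 h, 3.49 to 9.49 at day 3 and 1.15 to 5.64 at day 7. The MCAO 3 h libraries were thus apart from the other MCAO times for *Synpr*, while for *Gm15446* the highest of them overlapped with 12 h and day 7. A link between sham tissue at 12 h and MCAO tissue at 3 h was not tested.

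No other gene passed the limits between early and late shams. The next by unadjusted p were *Tmem181b-ps* and *Frzb*, and *Htra1* and *Gfod1* had the same adjusted p as *Frzb*. *Tmem181b-ps*, a transcribed pseudogene whose reads may be shared with related *Tmem181* copies, had 21.8, 25.1, 36.2 and 12.9 CPM at 3 h, 23.3, 25.7, 43.6 and 41.5 at 12 h, 5.34, 5.03, 5.97 and 8.29 at day 3 and 24.5, 27.8, 27.4 and 17.4 at day 7. The day 3 libraries were below all 8 early libraries, but those of day 7 were within the early range, and the log2 fold change of 1.22 had an adjusted p of 0.0305 by edgeR. *Frzb*, a secreted inhibitor of Wnt signalling, had 21.0, 20.5, 15.9 and 29.5 CPM at 3 h, 33.0, 28.8, 29.5 and 28.7 at 12 h, 47.0, 38.8, 27.6 and 39.6 at day 3 and 42.2, 53.8, 52.1 and 63.7 at day 7 (log2 fold change −0.82, adjusted p = 0.126 by edgeR). Here day 3 overlapped with both early groups and day 7 with neither.

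The 3 genes without any overlap between the 8 and 8 libraries did not pass the test. *Ppic*, which codes for the peptidyl-prolyl isomerase cyclophilin C, had 0 to 1.63 CPM in early shams and 3.20 to 5.53 CPM in late shams (log2 fold change −1.71, adjusted p = 0.232 by edgeR). *Dusp14*, a dual-specificity phosphatase, had 71.9 to 102 CPM against 107 to 132 CPM (log2 fold change −0.37, adjusted p = 0.624 by edgeR). *Gm10125*, a noncoding transcript, was at 4.82 to 7.5 CPM in early and 1.83 to 4.59 CPM in late shams (log2 fold change 0.81, adjusted p = 0.758 by edgeR). In controls *Ppic* was at 3.89 to 4.97 CPM, as high as in late shams.

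Within the early group, 12 h and 3 h differed in 3 genes (0.0165%), all lower at 12 h, and 513 genes were higher (2.83%) and 513 lower (2.83%) at an unadjusted p under 0.05, with 447 genes (2.46%) without overlap of the 4 and 4 libraries. Besides *Synpr* and *Gm15446*, the gene called was *Nptx1*, which codes for neuronal pentraxin 1, a secreted protein that binds AMPA receptors at synapses. *Nptx1* had 529.6, 423, 516 and 591 CPM at 3 h and 236, 261, 262 and 299 CPM at 12 h, with no overlap (log2 fold change −0.96, SE 0.15, edgeR adjusted p = 0.00381). It stayed low at day 3, with 254, 241, 253 and 338 CPM, and was at 518, 612, 505 and 665 CPM at day 7, so early and late shams as wholes had a log2 fold change of only −0.097 (adjusted p = 0.969 by edgeR). Controls had 419, 409, 398 and 355 CPM and shams at 24 h 201, 179, 302 and 223 CPM. *U2af1*, a splicing factor that recognises the 3′ splice site, missed the limit, with 41.6, 39.9, 51.6 and 46.6 CPM at 3 h and 11.4, 20.1, 17.1 and 28.7 at 12 h (adjusted p = 0.0136 by edgeR). Summed striatal markers were at 459 to 1708 CPM at 3 h and 748 to 2492 CPM at 12 h, and their part in these values was not tested.

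In the main fit, the late groups differed from each other in more genes than the early groups did. Between day 7 and day 3, 8 genes passed (0.0441%), 4 in each direction, 1317 were higher (7.26%) and 1408 lower (7.76%) at day 7 at an unadjusted p under 0.05, and 1575 (8.68%) did not overlap. Leaving out the libraries of day 3 in turn, the count ran from 0 without day 3 C to 10 without day 3 D. With each library of the late groups left out in turn, 1610 to 3197 genes had an unadjusted p under 0.05. The range was 857 to 1633 for 12 h against 3 h. DESeq2 called 94 genes here and 8 between 12 h and 3 h. The difference between the late groups thus had more genes past the unadjusted limit than early against late had, although it rested on 4 and 4 libraries.

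*Nptx1* was higher at day 7 (log2 fold change 1.08, edgeR adjusted p = 0.000818). *Gcsh*, a subunit of the mitochondrial glycine cleavage system, had 15, 22.4, 25.7 and 26.7 CPM at day 3 and 55.9, 69.1, 51.1 and 66.9 at day 7 (log2 fold change 1.45, edgeR adjusted p = 0.00244), and its early libraries, at 40.6 to 50.4 and 38.6 to 63.4 CPM, lay above all those of day 3. *A830036E02Rik*, a transcript antisense to the keratin gene *Krt12*, had 27.4, 29.7, 41.3 and 42.8 CPM at day 3 and 78.1, 90.9, 77.4 and 76.5 at day 7, against 71.3 to 75.9 at 3 h (log2 fold change 1.20, edgeR adjusted p = 0.00317). *Krt12* had 982 counts in the 16 libraries, and the strand setting of the counting is not given in the sources used here. *Tmem181b-ps* was the fourth, with a log2 fold change of 1.97 (edgeR adjusted p = 0.00489). In all 4 genes the 4 libraries of day 7 lay above the 4 of day 3.

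Of the 4 genes that were lower at day 7, *Ldb1*, a LIM domain binding protein that joins transcription factors, had 29.9, 41.1, 45.5 and 19.4 CPM at day 3 and 6.84, 5.10, 12.4 and 1.83 at day 7 (log2 fold change −2.40, edgeR adjusted p = 0.00463). It overlaps *Pprc1* on the other strand. *Cep78*, a centrosomal protein, had 14.3, 14.6, 13.8 and 8.75 and 5.13, 2.32, 2.69 and 1.83 CPM (log2 fold change −2.12, edgeR adjusted p = 0.00878). In both genes the early libraries lay between the late groups or overlapped with them, at 12.3 to 28.3 and 10.3 to 18.6 CPM for *Ldb1* and 3.75 to 10.2 and 3.79 to 12.0 CPM for *Cep78*.

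The other two were pseudogenes that were near 0 in some libraries and well above it in others. 4930526A20Rik had 22.4, 21.9, 24.3 and 29.9 CPM at day 3, 1.14, 1.86, 2.69 and 0.916 at day 7 and 1.07 to 2.85 and 1.08 to 3.49 CPM at 3 h and 12 h (day 7 against day 3: log2 fold change −3.86, edgeR adjusted p = 0.00401). The day 3 group stood alone among shams, but controls A and C had 18.2 and 21.1 CPM against 0.552 and 1.12 CPM in B and D, so the same contrast appeared within a group. *Gm10263* had 27.8, 0.914, 33.1 and 16.6 CPM at day 3 and 0.570, 0.928, 0 and 0 at day 7 (edgeR adjusted p = 0.00228), so day 3 B lay with the libraries of the other times, and in early shams it did not exceed 0.571 CPM.

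Set against the controls, 4 genes passed for early shams (0.0221%) and 1 for late shams (0.00551%). *Synpr* (log2 fold change −2.22, edgeR adjusted p = 7.73e-06) and *U2af1* (−1.19, edgeR adjusted p = 0.000713) were lower in early shams than in controls, and *Tmem181b-ps* was higher (1.79, edgeR adjusted p = 0.00682). *U2af1* had 72.6, 66.8, 67.2 and 64.1 CPM in controls, above all 8 early libraries, and 26.4, 32.0, 22.5 and 31.3 CPM at day 3 and 50.2, 58.5, 75.8 and 55.0 at day 7, with a late-control log2 fold change of −0.72 (adjusted p = 0.562 by edgeR). The remaining call, in both comparisons, was *Ttr*, the transthyretin gene of the choroid plexus, which had 483 CPM in control A and at most 4.13 CPM in any other of the 24 libraries. Both comparisons share the 4 controls.

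Gene lists were described by the number of members that passed and by the median log2 fold change of the members tested, beside 0.009 for all genes tested. They were drawn up with earlier results of these data known. In the early-late comparison, no member of the 24 lists of processes and 16 lists of markers passed the limits under edgeR, and 4 lists of processes had medians over 0.23 in favour of early shams with at least 10 members tested. These were immediate early transcription factors (0.31), glucocorticoid-responsive genes (0.30), cytokine and NF-kB response genes (0.28) and ERK feedback regulators (0.24). Of the lists of processes, chemokines had the lowest median, at −0.32. Lower still were 3 lists of markers, hippocampus (−0.60), lymphocytes (−0.58, 2 genes) and pericytes and smooth muscle (−0.46). The 2 lymphocyte genes tested were *Cd4* and *Trbc2*. Since *Cd3e* and *Cd3g* had 1 count each in the 16 libraries and *Cd8a*, *Cd79a* and *Ms4a1* had 0, this median cannot be read as a level of lymphocytes. The medians depended on which time groups were compared. With day 3 as the only late group they were −0.035 for immediate early transcription factors, −0.16 for ERK feedback regulators and 0.02 for cytokine and NF-kB response genes. With day 7 as the only late group those of the first pair were 0.59 and 0.60. Over all 32 alternatives the median of glucocorticoid-responsive genes ran from 0.16 to 0.40.

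**Figure D4:**
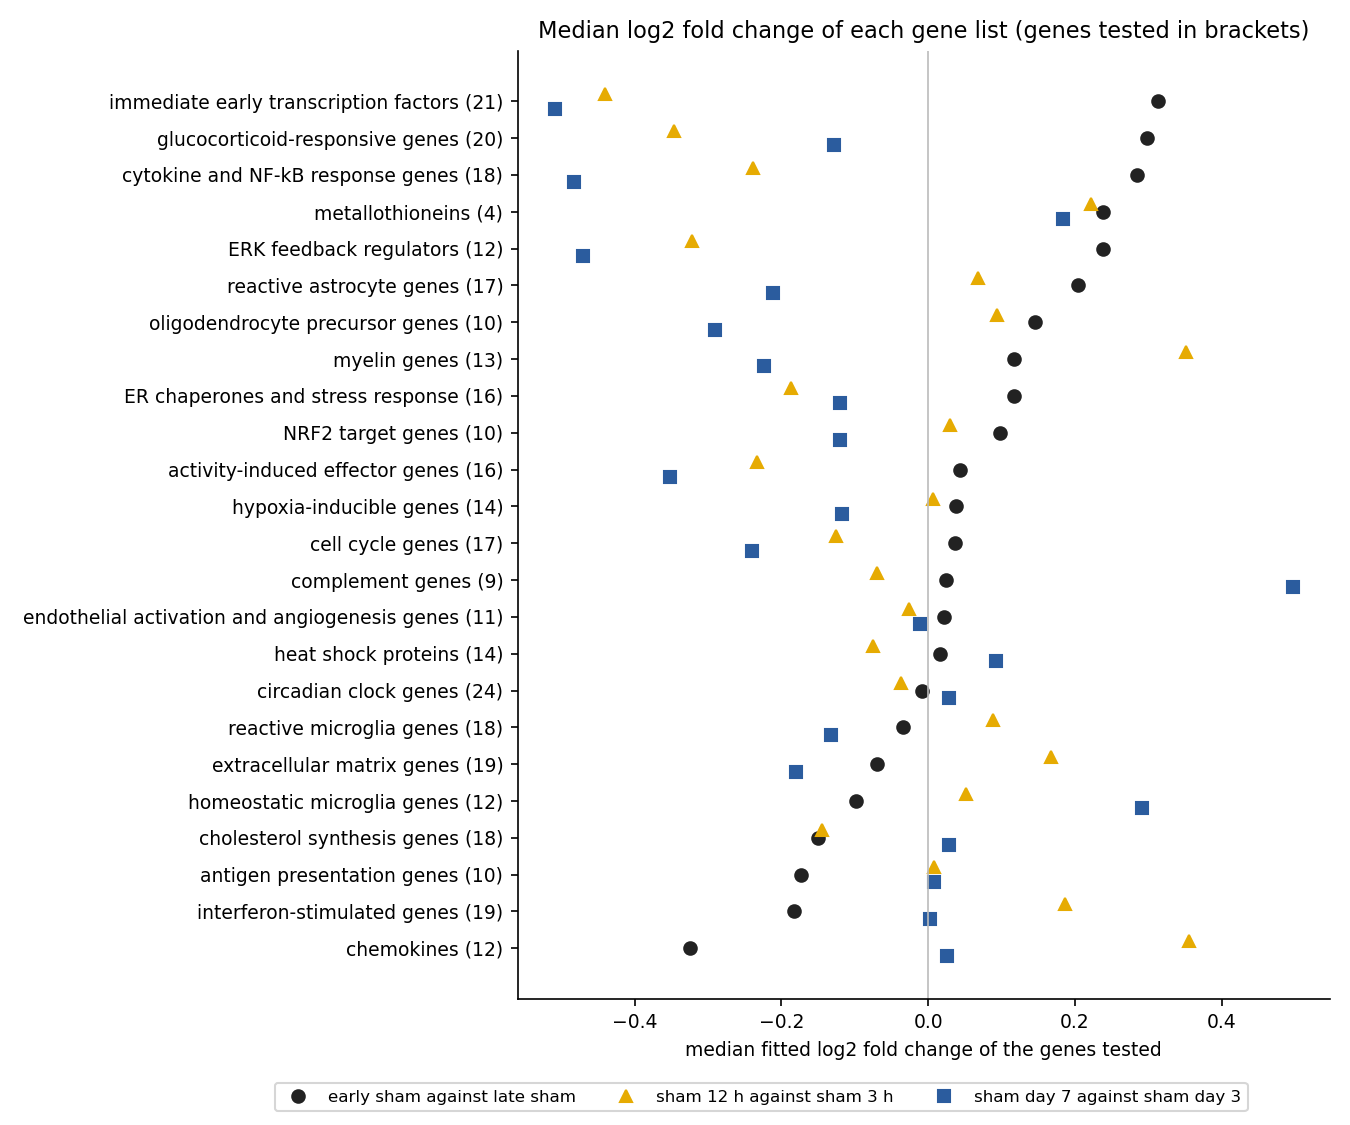
Median fitted log2 fold change (horizontal) of the members tested in each of 24 gene lists (vertical), for early against late shams (circles), 12 h against 3 h (triangles) and day 7 against day 3 (squares). Immediate early transcription factors are at 0.31, −0.44 and −0.51, so the median member was lower at 12 h than at 3 h and lower at day 7 than at day 3.

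Immediate early transcription factors, the fast nuclear response to stimulation, had 21 members tested. Of these, 16 had a log2 fold change above 0, and 6 were higher in early shams at an unadjusted p under 0.05 (*Klf2*, *Nr4a3*, *Klf4*, *Fosb*, *Egr2* and *Fos*) and none lower, against 2.78% and 2.97% of all genes. *Fosb* had 16.2, 35.9, 34.9 and 23.6 CPM at 3 h, 4.33, 23.2, 23.6 and 8.54 at 12 h, 14.6, 15.5, 20.7 and 21.7 at day 3 and 7.98, 12.1, 11.8 and 8.24 at day 7 (log2 fold change 0.59, adjusted p = 0.861 by edgeR). *Egr1*, a zinc finger factor, had 347, 335, 282 and 304 CPM at 3 h, 158, 276, 459 and 323 at 12 h, 414, 421, 357 and 431 at day 3 and 297, 193, 203 and 136 at day 7 (log2 fold change 0.10). Both genes overlapped between early and late shams, and the lowest 12 h library in each was sham 12 h A, which stands apart on the first component. At day 7, 9 of the 21 members were lower than at day 3 at an unadjusted p under 0.05, against 7.76% of all genes, and 7 did not overlap, against 8.68% of all genes, *Egr1* with the smallest adjusted p (0.0395 by edgeR). Against the controls, which both comparisons share, the medians of the list were −0.042 for early and −0.44 for late shams. The early-late median thus sat beside a difference of −0.51 between the late groups and of −0.44 between 12 h and 3 h.

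Effector genes of neuronal activity had an early-late median of 0.044 over 16 genes tested. *Arc* was higher and *Nrn1* lower (log2 fold change −0.23) in early shams at an unadjusted p under 0.05, against 2.78% and 2.97% of all genes. The median of the list was −0.23 for 12 h against 3 h, with 1 member higher and 4 lower against 2.83% each way of all genes. It was −0.35 for day 7 against day 3, with 5 lower against 7.76%. The difference between this list and the transcription factors was not tested. *Arc*, which shapes AMPA receptor traffic, had 181, 167, 147 and 117 CPM at 3 h, 30.9, 52.5, 73.1 and 84.3 at 12 h, 115, 81.3, 38.1 and 55.3 at day 3 and 75.3, 23.7, 61.3 and 49.5 at day 7. All 4 libraries at 3 h were above those at 12 h, day 3 and day 7, but controls, at 97.9, 59.6, 106 and 173 CPM, overlapped with 3 h (early-late log2 fold change 0.65, adjusted p = 0.773; 12 h against 3 h −1.33, adjusted p = 0.286, both by edgeR). *Bdnf*, the neurotrophin, had a log2 fold change of 0.05. Among the 12 ERK feedback regulators, which damp MAP kinase signalling, *Dusp1* (0.47), *Dusp5* (0.53) and *Spred1* (0.29) were higher in early shams at an unadjusted p under 0.05. *Dusp14* was lower, and the shares of all genes were 2.78% higher and 2.97% lower.

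Glucocorticoid-responsive genes had 20 members tested, 17 of them with a log2 fold change above 0, 4 higher at an unadjusted p under 0.05 (*Fkbp5*, *Plin4*, *Cdkn1a* and *Mt2*) and none lower, against 2.78% and 2.97% of all genes. *Fkbp5*, a co-chaperone of the glucocorticoid receptor and one of its targets, had 40.0, 42.2, 41.1 and 40.2 CPM at 3 h. It had 18.4, 30.9, 23.3 and 29.1 at 12 h, 15.4, 15.6, 25.0 and 35.5 at 24 h, 25.3, 25.6, 20.7 and 32.3 at day 3, 18.2, 24.6, 22.0 and 11.9 at day 7 and 19.8, 19.3, 20 and 15.7 in controls. The 4 libraries at 3 h lay within 40.0 to 42.2 CPM and above every other library of the 24, and those at 12 h overlapped with late shams. The early-late log2 fold change was 0.53 (SE 0.17, unadjusted p = 0.0036, adjusted p = 0.758 by edgeR) and that of 12 h against 3 h −0.68 (adjusted p = 0.77 by edgeR).

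*Tsc22d3* and *Cdkn1a* were also lower at 12 h than at 3 h at an unadjusted p under 0.05. *Tsc22d3*, which codes for the glucocorticoid-induced leucine zipper protein, had 167, 124, 122 and 114 CPM at 3 h, 56.9, 83.3, 42.9 and 84.6 at 12 h, 79.5, 67.2, 60.2 and 107 at day 3 and 86.1, 60.8, 70.4 and 81.5 at day 7, so that all libraries at 3 h were above all of the other 3 groups (12 h against 3 h: log2 fold change −0.98, adjusted p = 0.187 by edgeR). *Cdkn1a*, the cell cycle inhibitor p21, had 113, 108, 92.7 and 97.5 CPM at 3 h and 64.5, 93.1, 43.3 and 41.9 at 12 h, 58.4, 78.6, 56.0 and 68.2 at day 3 and 30.2, 69.1, 52.7 and 64.1 at day 7, with overlap between 3 h and 12 h. Of the 20 members, 4 were lower and 2 higher at 12 h, against 2.83% each way of all genes. The higher were the metallothionein *Mt1* (log2 fold change 0.33) and *Angptl4* (1.54), a secreted lipase inhibitor. The kinase *Sgk1* had 50.3, 46.2, 36.2 and 40.7 CPM at 3 h and 52.0, 64.8, 45.5 and 80.8 at 12 h. The median of the list was −0.35 for 12 h against 3 h and −0.13 for day 7 against day 3.

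**Figure D5:**
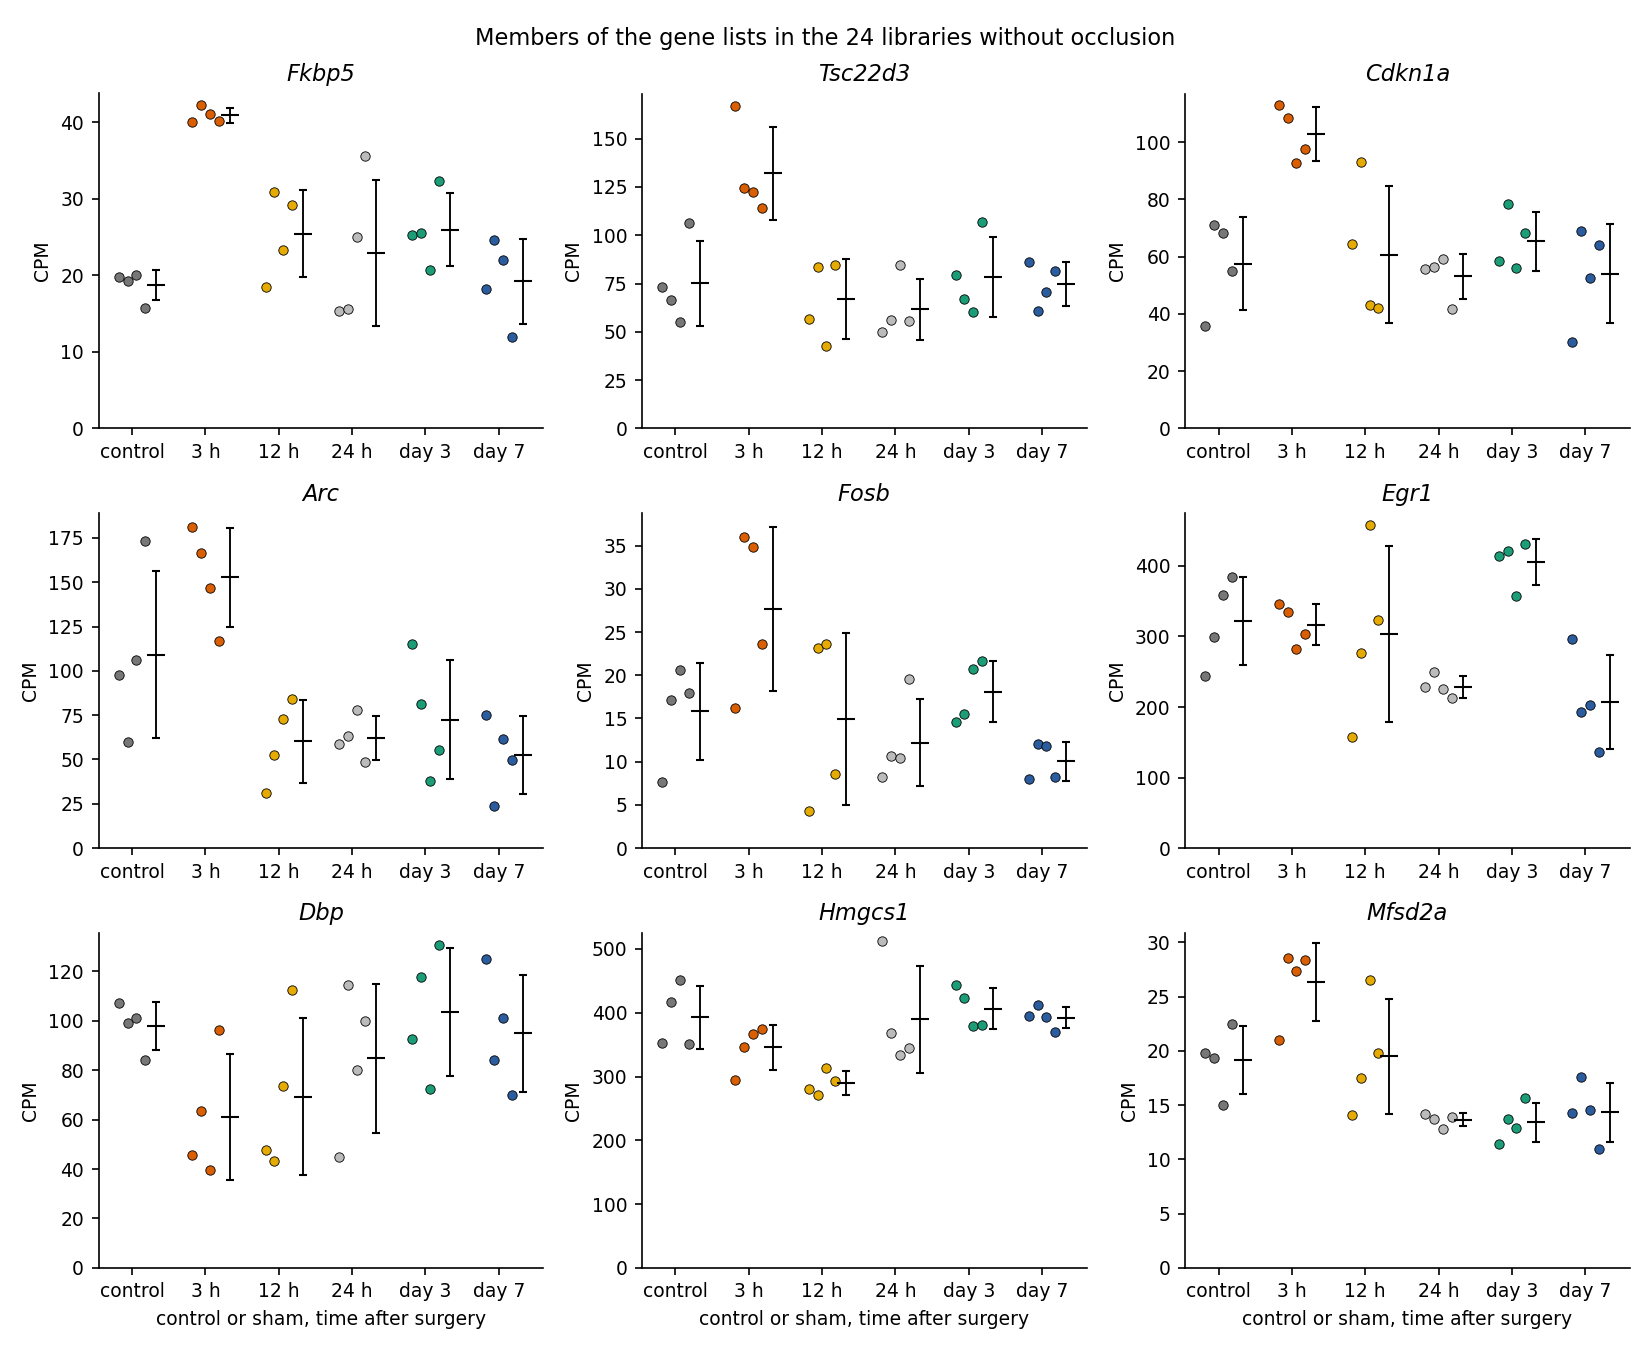
CPM (vertical, from 0) of 9 members of the gene lists in controls and in shams by time after surgery. Each point is a library, and the bar to its right is the mean ± SD (n = 4). *Fkbp5*, *Tsc22d3*, *Cdkn1a*, *Arc*, *Fosb* and *Mfsd2a* have their highest group mean at 3 h, with *Fkbp5* at 40.0 to 42.2 CPM there, and none of the 9 passed the early-late test.

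Clock genes had 24 members tested and a median of −0.008, with 2 higher and 4 lower in early shams at an unadjusted p under 0.05, against 2.78% and 2.97% of all genes. Those lower were *Dbp*, *Ciart*, *Usp2* and *Per3*, outputs or repressors of the clock, and those higher *Nfil3* and *Clock*. *Dbp*, a transcription factor driven by CLOCK and BMAL1, had 45.6, 63.3, 39.7 and 96.5 CPM at 3 h, 47.7, 43.2, 73.8 and 113 at 12 h, 92.6, 118, 72.6 and 131 at day 3 and 125, 84.0, 101 and 70.1 at day 7 (log2 fold change −0.60, adjusted p = 0.773 by edgeR), with overlap between early and late. *Per2* had 78.0, 81.6, 98.4 and 74.5 CPM at 3 h and 16.3, 59.7, 65.1 and 57.5 at 12 h, with no overlap, and 77.0, 85.4, 96.0 and 91.2 CPM at day 3 and 53.6, 48.7, 67.7 and 37.1 at day 7, again with no overlap, while its early-late log2 fold change was −0.057. *Arntl*, which codes for BMAL1, had 12.5, 18.3, 20.2 and 19.8 CPM at day 3 and 9.69, 7.42, 11.8 and 4.12 at day 7. Between day 7 and day 3, 7 of the 24 members did not overlap, against 8.68% of all genes, and between early and late none did. None of these clock genes passed an adjusted limit under edgeR in any of the 3 comparisons.

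Cholesterol synthesis genes, active in astrocytes and oligodendrocytes of the adult brain, had 18 members tested, a median of −0.15, 5 lower in early shams at an unadjusted p under 0.05 and none higher, against 2.97% and 2.78% of all genes. *Hmgcs1*, an early enzyme of the pathway, had 295, 347, 366 and 375 CPM at 3 h and 281, 271, 314 and 292 at 12 h, against 443, 424, 379.9 and 380.1 at day 3 and 395, 412, 393 and 370.0 at day 7 (log2 fold change −0.34, SE 0.092, adjusted p = 0.611 by edgeR). The 12 h libraries lay below all late libraries, and 3 h overlapped with day 7. The others were *Fdft1* (−0.53), *Sqle* (−0.43), *Msmo1* (−0.28) and *Insig1* (−0.62), the last a brake on the sterol-sensing machinery rather than an enzyme.

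Inflammatory transcripts were scarce at all times. The cytokines *Il6* and *Tnf* had 2 counts each in the 16 libraries together, the monocyte attractant *Ccl2* had 4 and the interferon-induced chemokine *Cxcl10* had 8, and none of these 4 was tested. The 18 cytokine and NF-kB response genes tested had no member past an unadjusted p of 0.05 in either direction, although 14 had a log2 fold change above 0. Against the shared controls the medians of this list were −0.69 for early and −0.94 for late shams, beside −0.002 and −0.012 for all genes. The adhesion molecule *Icam1* had log2 fold changes of −2.17 and −2.79, and *Vcam1* of −0.92 and −0.92. The smallest adjusted p in the list by edgeR were 0.343 and 0.329. *Socs3*, a feedback inhibitor of cytokine signalling, had 5.15, 6.28, 5.74 and 3.22 CPM at 3 h, 0, 4.63, 3.27 and 2.33 at 12 h, 8.20, 5.94, 7.81 and 2.76 at day 3 and 2.28, 1.39, 0.537 and 0.916 at day 7, so that day 3 was as high as 3 h (early-late log2 fold change 0.36, adjusted p = 0.968 by edgeR). The chemokine with the smallest p was *Cxcl12*, a constitutive chemokine of vessels and meninges, at 32.7 to 47.8 CPM in early and 34.8 to 89.2 CPM in late shams (log2 fold change −0.57, adjusted p = 0.624 by edgeR). Neutrophil markers summed to 1.07 to 8.83 CPM in early and 0 to 4.56 CPM in late shams, with 4.95 to 13.2 CPM in controls, and *Ly6g*, a defining marker of neutrophils, had no count in the 16 libraries.

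Homeostatic microglia genes had a median of −0.099 over 12 genes and reactive microglia genes −0.035 over 18. Reactive astrocyte genes had 0.20 over 17, with 12 above 0. Among these, *Lcn2* (log2 fold change 2.33) and *Cp* (0.46) were higher and *Emp1* (−1.49) lower at an unadjusted p under 0.05. The shares of all genes were 2.78% higher and 2.97% lower. Means in early and late shams were 2.30 and 0.50 CPM for *Lcn2* and 0.65 and 1.53 CPM for *Emp1*. *Gfap*, the intermediate filament of reactive astrocytes, had 40.8, 52.5, 75.9 and 41.8 CPM at 3 h, 97.5, 59.2, 22.5 and 42.7 at 12 h, 39.2, 39.3, 44.1 and 30.9 at day 3 and 39.9, 51.0, 40.3 and 59.5 at day 7, and controls had 40.2, 39.2, 46.1 and 70.8 CPM (early-late log2 fold change 0.33, adjusted p = 0.927 by edgeR). All time groups overlapped with the controls in this gene. *Serping1*, the C1 inhibitor of complement, was at 7.38 to 15 CPM in early and 11 to 21.0 CPM in late shams (log2 fold change −0.68, adjusted p = 0.602 by edgeR). *H2-D1*, a class I histocompatibility gene, was at 12.5 to 40.7 and 19.5 to 62.2 CPM (log2 fold change −0.61, adjusted p = 0.579 by edgeR). In the oligodendrocyte lineage, *Gpr17*, a receptor of committed precursors, was at 11.6 to 22.3 CPM in early and 6.87 to 15.2 CPM in late shams (log2 fold change 0.66, adjusted p = 0.758 by edgeR). All 3 of these genes overlapped between early and late shams.

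Vascular and neuronal markers were examined because a bulk level cannot tell fewer cells of a type from less RNA in each cell. *Mfsd2a*, the lipid transporter of the blood-brain barrier, had 21.0, 28.5, 27.4 and 28.4 CPM at 3 h, 14.1, 17.5, 26.5 and 19.8 at 12 h, 11.4, 13.7, 12.9 and 15.7 at day 3 and 14.3, 17.6, 14.5 and 11 at day 7 (log2 fold change 0.71, SE 0.15, adjusted p = 0.167 by edgeR). Its 3 h libraries lay above all late libraries, while the transporter *Slco1a4* of the same cells had a log2 fold change of −0.41. Most of the endothelial list went the other way from *Mfsd2a*, as its 12 members tested had a median of −0.20, with 3 above 0. At an unadjusted p under 0.05, 1 member was higher and 1 lower, against 2.78% and 2.97% of all genes. Summed endothelial markers overlapped, at 334 to 484 CPM in early and 369 to 478 CPM in late shams. All 9 markers of pericytes and smooth muscle had a log2 fold change at or below 0 in early shams, with a median of −0.46. Of these, *Acta2* and *Tagln*, both of the contractile apparatus, were lower at an unadjusted p under 0.05, against 2.97% of all genes. *Acta2* had 23.0, 18.8, 15.9 and 24.1 CPM at 3 h, 27.1, 12.3, 17.8 and 20.2 at 12 h, 19.2, 27.9, 23.9 and 16.1 at day 3 and 29.7, 34.3, 31.7 and 41.2 at day 7, against 50.1, 34.2, 44.5 and 37.1 CPM in controls. Controls thus lay above all 8 early libraries (early-control log2 fold change −1.06, adjusted p = 0.0243 by edgeR). The 11 neuronal markers had an early-late median of −0.09, with 2 above 0. Of these, *Slc17a7* and *Stmn2* were lower at an unadjusted p under 0.05, against 2.97% of all genes. The 8 markers of cortical excitatory layers had a median of −0.011, with 3 above 0 and none at an unadjusted p under 0.05. *Slc17a7*, the vesicular glutamate transporter of cortical excitatory neurons, had 414, 433, 388 and 409 CPM at 3 h, 465, 448, 356 and 398 at 12 h, 499, 439, 475 and 448 at day 3 and 513, 662, 563 and 863 at day 7 (log2 fold change −0.41, adjusted p = 0.355 by edgeR), and its highest library was the sham day 7 D that stands apart.

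Blood and striatal markers varied widely between libraries of the same time group. Haemoglobin genes had a median log2 fold change of 1.38 in the early-late comparison, and 3 of 4 tested were higher in early shams at an unadjusted p under 0.05, against 2.78% of all genes. The median ran from 0.91 to 1.77 over the 32 alternatives. *Hbb-bs*, the adult beta globin, had 26.1, 3.99, 32.7 and 9.65 CPM at 3 h, 5.96, 9.26, 70.6 and 50.9 at 12 h, 9.26, 7.31, 5.05 and 6.45 at day 3, 26.2, 2.32, 6.45 and 22.9 at day 7 and 17.6, 36.4, 46.1 and 34.3 in controls, so that the early libraries overlapped with most of the late range and went above it. Striatal markers had a median of 0.13 between early and late shams but of 1.15 between 12 h and 3 h, where 7 of 10 were higher at an unadjusted p under 0.05, against 2.83% of all genes. *Adora2a*, the adenosine receptor of striatopallidal neurons, had 8.32, 13.1, 4.86 and 65.4 CPM at 3 h and 157, 53.5, 6.55 and 89.3 at 12 h, and 18.9, 73.1, 15.6 and 19.4 at day 3 and 18.2, 58.0, 29.0 and 14.7 at day 7. Sham 12 h C, with the lowest striatal level of its group, had the highest *Synpr* level of that group, at 13.1 CPM, still below every library of the other times, and the part of tissue composition in the values above was not tested.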

How the data were processed

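Bulk RNA was measured in 48 QuantSeq 3′ end libraries of mouse brain (11 groups by label). The authors trimmed the reads, removed rRNA and mitochondrial reads, aligned them to GRCm38 with STAR 2.5.2b and counted them over the Gencode annotation with HTSeq in union mode, and deposited raw counts per gene and library without normalization. Rows of ERCC spike-ins and of reads not assigned to a gene (medians of 23.7% without a feature, 31% not uniquely aligned and 0.4% ambiguous) were left out of library sizes and tests. Counts were analysed with edgeR 4.0.16 in R 4.3.3 (TMM, quasi-likelihood F test, Benjamini-Hochberg), in 1 model with 6 groups (control and 5 sham times, 24 libraries), for genes with more than 10 counts over these. The early-late contrast took the mean of the log means of 3 h and 12 h minus that of day 3 and day 7, and 4 further contrasts compared 12 h with 3 h, day 7 with day 3, and each side with controls. The limits for a gene to pass were 0.01 for the adjusted p and 0.58 for the size of the log2 fold change. The 36 pairs of libraries within groups held no identical tables, and their counts differed by more than sampling noise. The script was tested on simulated counts. Coordinates are GRCm38, and 46488 of 46983 gene identifiers had a symbol.

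Genes were named if they passed in early against late with no overlap and at least 5 CPM (none did), if they passed within the early or within the late group with no overlap and at least 5 CPM, or as members of a described list. *Synpr* and *Tmem181b-ps* were named for the comparisons within the early or late group. *Gm15446*, *Gm10263*, *U2af1*, *Ttr*, *Frzb*, *Htra1*, *Gfod1*, *Gm10125* and *Ppic* were named after their values were seen. The members and lists were chosen with earlier results of these data known. Alternatives were DESeq2 1.42.0 (test, and size factors in edgeR), ERCC library sizes, other filters, other sets of libraries, a replicate block and single time groups. Whether same-letter libraries pair was checked by the correlation of their deviations from group means. The 24 pairs gave −0.451 to 0.408 (median 0.061, against −0.031 for other letters), which does not settle the question. The labels give no pairing, so the main model used none.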

Additional observations from a re-analysis of the deposited data

Results flagged for a closer look

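Within groups of 4 libraries, the highest or lowest was compared with the rest for 62 genes and 16 sums of markers, at a gap of over 0.829 of the group's range (Dixon's limit for 4 values). Of 344 group values in which the highest library had at least 5 CPM, 32 (9.3%) lay beyond it, where chance flags about 1 in 20. All values are in CPM.

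Of the genes that passed a comparison, *Synpr* was high in sham 12 h C (13.1, others 4.12 to 4.88) and in sham day 7 B (63.6), *Nptx1* in sham day 3 D (338), A830036E02Rik in sham day 7 B (90.9) and *Ttr* in control A (483), and *Cep78* was low in sham day 3 D (8.75) and control C (7.78). The *Synpr* value of sham 12 h C was still below every library of the other times. *Frzb* was high in sham 12 h A (33.0) and *Ppic* in sham day 3 D (5.53).

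Among activity, stress and clock genes, *Junb* was low in sham day 3 D (37.3, others 89.4 to 99.7), *Klf4* high in control D (25.3), *Fkbp5* low in control D (15.7), *Per2* low in sham 12 h A (16.3, others 57.5 to 65.1), *Clock* low in sham 12 h C (102) and *Usp2* low in sham day 7 C (218). *Plin4* was low in sham 12 h C (4.0) and high in sham day 3 D (7.37), and *Insig1* was high in sham 3 h B (18.8). Sham day 3 D thus appears with 5 genes, and leaving it out moved the count of day 7 against day 3 from 8 to 10.

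For cell types and blood, *Adora2a* was high in sham day 3 B (73.1) and sham 3 h D (65.4), and the summed striatal projection neuron markers in sham 3 h D (1708). *Gh* and *Prl* were high in sham 3 h C (370 and 136), as were summed hypothalamus and pituitary markers (512). Summed choroid plexus markers were high in control A (883) and summed fibroblast and meninges markers in sham day 3 C (224). The summed lymphocyte list, here *Cd4* and *Trbc2* alone, was high in control B (38.6). *Hba-a1* was high in control C (44.5), *Hbb-bt* and *Slco1a4* in sham 12 h D (14.4) and sham 3 h D (64.3), and *Gpr17* and *Mfsd2a* were low in sham 12 h D (11.6) and sham 3 h A (21.0).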

How the results depend on the processing

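In early sham against late sham, 2 genes passed. The count was 1 with ERCC library sizes, with filterByExpr, with only the groups compared, with the replicate block, without both libraries that stand apart, and with sham 24 h counted as early or as late (the last 3 chosen after seeing the data). It was 7 without a filter and with day 3 alone as late, and 4 by DESeq2. It was 0 as 2 groups of 8, with 3 h alone as early and with day 7 alone as late, where 695, 1009 and 1922 genes had an unadjusted p under 0.05. Leaving out each library gave 1 to 3, with 3 without sham 3 h D, 2 without sham day 7 A and 1 without any of the other 14. Over all 32 alternatives the log2 fold change of *Synpr* ran from −3.27 to −0.32. *Synpr* remained called in 29 of them, at −3.27 to −1.307, and *Gm15446* in 8. Sign changes were in 7 fits of genes not called here: *U2af1* was 0.14 with 3 h alone and 0.081 with day 3 alone, *Arc* −0.021 with 12 h alone, *Fos* −0.035 with day 3 alone, and with day 7 alone *Gcsh* was −0.38, A830036E02Rik −0.20 and 4930526A20Rik 0.31. The list medians of immediate early transcription factors (−0.035 to 0.59) and ERK feedback regulators (−0.16 to 0.60) also changed sign, the first with day 3 alone and the second with day 3 alone or 12 h alone.

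In sham 12 h against sham 3 h (3 genes), the count was 29 without a filter, 0 with only the groups compared (602 at unadjusted p under 0.05), 8 by DESeq2 and 1 without the libraries that stand apart, and 1 to 3 on leaving out a library, with 1 without sham 12 h A, sham 12 h B or sham 3 h A. In sham day 7 against sham day 3 (8 genes), it was 2 with ERCC library sizes, 173 without a filter, 4 with all 48 libraries, 5 with only the groups compared, 20 with the replicate block and 94 by DESeq2. It was 0 to 10 on leaving out a library: 0 without day 3 C (2206 at unadjusted p under 0.05), 2 without day 7 B, and 3 without day 3 A, day 3 B, day 7 C or day 7 D. In early sham against control (4 genes), it was 2 with filterByExpr, 12 without a filter, 1 with only the groups compared, 7 by DESeq2, and 2 to 5 on leaving out a library, with 2 without sham 3 h A, sham 3 h C or control A. In late sham against control (1 gene), it was 0 with filterByExpr, only the groups compared, the replicate block, DESeq2 and without the libraries that stand apart, 5 without a filter, 2 with all 48 libraries, and 0 to 1 on leaving out a library, with 1 without day 3 C, control B, control C or control D and 0 without any other. Where it was 0, 503 to 985 genes had an unadjusted p under 0.05.

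The causes were not tested. The labels do not say whether letters pair the libraries, and the main model used no pairing. Correlations had a median of 0.061 for the same letter, with 10 of 24 over 0.1, and of −0.031 for other letters. Of the 16 libraries, 5 correlated best with their own letter, so pairing was neither shown nor excluded. With 8 and 8 libraries of 1716514 to 2826735 counts, the median SE was 0.165 among genes with at least 5 CPM. Differences below the limit, and also larger ones, could thus be missed for many genes. *Tmem181b-ps* (log2 fold change 1.22, SE 0.22), *Frzb* (−0.82, SE 0.17) and *Mfsd2a* (0.71, SE 0.15) exceeded 0.58 in size and did not pass. Day and batch cannot be told apart from time.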

Other observations

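Several gene lists not described above had no member that passed between early and late shams under edgeR. Over the genes tested the median log2 fold change was 0.016 for 14 heat shock proteins, 0.12 for 16 chaperones and stress genes of the endoplasmic reticulum, 0.038 for 14 hypoxia-inducible genes, 0.098 for 10 NRF2 targets and 0.036 for 17 cell cycle genes. It was −0.07 for 19 extracellular matrix genes, −0.18 for 19 interferon-stimulated genes, 4 of them above 0, and −0.17 for 10 antigen presentation genes, 3 of them above 0. Myelin genes had a median of 0.12 between early and late shams and of 0.35 between 12 h and 3 h, where all 13 had a log2 fold change above 0 and none an unadjusted p under 0.05. The 9 complement genes tested had a median of 0.50 between day 7 and day 3. Of them, *C1qa* and *C1qb*, subunits of the initiating complex, were higher at day 7 at an unadjusted p under 0.05, against 7.26% of all genes.

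In the MCAO libraries, on the scale common to all 48, *Tmem181b-ps* had 37.1 to 49.1 CPM at 3 h and 0 to 0.425 CPM at 24 h. The pseudogene 4930526A20Rik, high in shams at day 3 and in controls A and C, had 23.0, 28.6, 22.4, 48.8 and 22.0 CPM at MCAO 12 h and 21.9, 18.8, 23.8, 34.5 and 2.5 CPM at MCAO day 7. *Gm10263*, high in 3 of 4 shams at day 3, had 0, 0.904, 0.499, 0.488 and 46.3 CPM at MCAO day 3 and 24.2, 29.0, 0.595, 0 and 0.626 CPM at MCAO day 7. Both 4930526A20Rik and *Gm10263* thus differed widely between libraries of the same MCAO group.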
